A study of Homo sapiens with 6 samples.

Results

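The genes described here are 10 members of the recycling endosome machinery among 58735 genes in a table of read counts: the Rab11 effectors RAB11FIP1 to RAB11FIP5, the EHD genes EHD1, EHD3 and EHD4, and the EHD partners MICALL1 and PACSIN2. They were taken by gene name, and all 10 were found. The counts came from 6 RNA-seq libraries of RPE-1, a human retinal pigment epithelial cell line whose centrioles carry GFP-tagged CETN2 and whose PLK4 gene answers to doxycycline through rtTA. In 3 libraries the cells had received an siRNA against SON, a nuclear speckle protein that acts in splicing (siSON), and in 3 a scramble siRNA (siControl). Both groups had PLK4, the kinase that starts centriole duplication, induced with doxycycline at 1 µg/mL, so every comparison below is between cells with induced PLK4. The labels number the replicates but do not say whether they were separate cultures. The p-values therefore set the group difference against the spread between these libraries, which may be technical.

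Recycling endosomes return internalized receptors and membrane to the cell surface, and in many cells they gather around the centrosome. The small GTPase Rab11 marks them, and the Rab11 family interacting proteins (Rab11-FIPs) bind active Rab11 and connect it to motors and tethers. The class I members RAB11FIP1, RAB11FIP2 and RAB11FIP5 carry a membrane-binding C2 domain, and the class II members RAB11FIP3 and RAB11FIP4 carry EF hands. EHD proteins are dynamin-like ATPases that shape and cut the tubules from which cargo leaves. MICALL1 is a scaffold of those tubules that recruits EHD1, and PACSIN2, also called syndapin-2, is an F-BAR protein that bends their membrane.

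The libraries held 54572365 to 69764836 counts. SON itself stood at 284 to 313 CPM (counts scaled to a common depth, library sizes adjusted with TMM factors) in siControl and at 65.0 to 69.9 CPM in siSON, a drop of log2 size -2.14 (edgeR adjusted p 6.78e-10). Pairs of libraries that included replicate 1 of their group differed more (chi-square per degree of freedom 18.3 to 26.1) than replicates 2 and 3 did (7.16 in siControl and 7.18 in siSON). Of 10 pigment epithelium markers, BEST1, MITF and OTX2 exceeded 1 CPM in every library and rose by 0.62, 0.52 and 0.82 on the log2 scale, whereas RPE65, RLBP1, TYR, TYRP1 and TTR stayed at or near 0. The other two, PMEL and SERPINF1, fell, from 2.06 to 0.200 CPM and from 0.876 to 0.360 CPM (edgeR adjusted p 3.72e-07 and 0.00268). Among keratin and junction markers KRT18 rose by 1.48 and KRT8 by 0.34 on the log2 scale, KRT7 fell by 0.76, and CDH1 and EPCAM stayed near 0. Among mesenchymal markers CDH2 rose by 0.66, ACTA2 fell by 2.86 and S100A4 by 1.35. VIM (-0.14) and FN1 (0.03) did not pass the test, so neither list moved in 1 direction. Of 8 blood and endothelial markers none reached 1 CPM in every library, CD3E and HBB were at 0, and their summed level was 3.09 to 3.98 CPM in siControl and 0.806 to 1.38 CPM in siSON. The part of these differences in the results below was not tested.

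SON knockdown moved these genes in opposite directions. Messenger RNA of the scaffold MICALL1 and of the class I effectors RAB11FIP1 and RAB11FIP2 fell, while that of RAB11FIP5, RAB11FIP3, EHD1, EHD3 and PACSIN2 rose. EHD4 was called higher with a log2 fold change of 0.16, but the call was lost in 9 of 14 alternative analyses and the sign turned in 2 of them (-0.04 with library size alone, -0.02 under cyclic loess). In bulk libraries, fewer cells that express a gene and less RNA per cell cannot be told apart. MICALL1 kept 34.1% of its control level, and the largest rise was 1.64-fold. Of the 10 genes, 9 passed the filter on low counts, and 9 of these 9 were called changed at an adjusted p under 0.05, in a comparison in which 71.7% of the 16591 genes tested were called. The 6 called higher, EHD4 among them, stand beside a background of 35.2%, and the 3 called lower beside 36.5%. MICALL1 and RAB11FIP1 were called at least 2-fold lower (background 20.5%), and 0 were called at least 2-fold higher (background 8.72%). The groups did not overlap for 9 of the 9 genes, against 75.1% of genes tested. The median log2 fold change of the 9 was 0.42, and that of genes tested was -0.03. With so large a share of the transcriptome called, these counts do not set the genes apart.

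**Figure D1:**
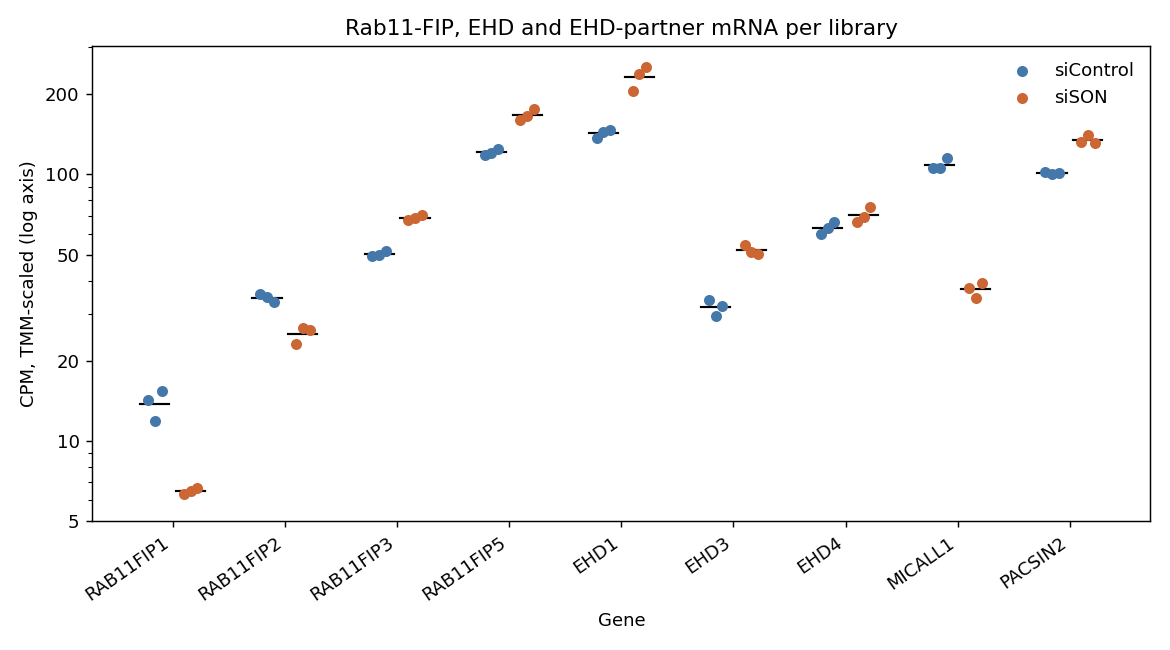
CPM (log axis, TMM-scaled) of the 9 genes tested, with 1 point per library, siControl in blue and siSON in orange, and a black line at each group's mean. MICALL1, RAB11FIP1 and RAB11FIP2 lie lower in the 3 siSON libraries, and the EHD4 groups lie closest together, at 59.8 to 66.2 CPM and 66.4 to 75.3 CPM.

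Among the class I effectors, RAB11FIP1, also known as Rab coupling protein, links Rab11 to integrin and growth factor receptor recycling. Replicates 1 to 3 held 14.2, 11.9 and 15.4 CPM in siControl and 6.30, 6.47 and 6.67 CPM in siSON, and the same replicate order is kept below. Every siSON library lay below every siControl library, and the siSON values were the more alike. The group means were 13.8 ± 1.80 and 6.48 ± 0.182 CPM (SD, n = 3 each), so that 46.9% of the control level remained (log2 fold change -1.09, SE 0.11, edgeR adjusted p 4.72e-06). Under cyclic loess normalization the log2 fold change was -0.86, short of a 2-fold fall. The gene (ENSG00000156675, GRCh38 chromosome 8, 37858618 to 37899467, minus strand) shares 2385 exon bases with AC130304.1 on the other strand, which had 0 to 4 counts.

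RAB11FIP2 recruits the motor myosin Vb to Rab11 membranes. Its levels were 35.5, 34.6 and 33.2 CPM in siControl and 23.1, 26.5 and 26.1 CPM in siSON. The siSON libraries were lower throughout, replicate 1 the lowest of them. The means of 34.4 ± 1.13 and 25.2 ± 1.83 CPM (SD, n = 3 each) gave a log2 fold change of -0.45 (SE 0.07, edgeR adjusted p 0.000223), a fall to 73.2% of control. The gene (ENSG00000107560, GRCh38 chromosome 10, 118004916 to 118046603, minus strand) shares 325 exon bases with the antisense gene CASC2, which had 6 to 84 counts, and whether counting used strand is not given in the sources used here.

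RAB11FIP5, or Rip11, acts in apical and regulated recycling and had the highest level per kilobase of the class I effectors. It had 118, 121 and 125 CPM in siControl and 160, 166 and 175 CPM in siSON. The groups were apart, with means of 121 ± 3.36 and 167 ± 7.89 CPM (SD, n = 3 each) and a log2 fold change of 0.46 (SE 0.05, edgeR adjusted p 1.39e-05). Only 39 of its exon bases overlap another protein-coding gene, SFXN5, on the same strand.

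The balance among class I effectors moved with these changes. Counted per kilobase of merged exons, RAB11FIP5 made up 71.0% ± 1.00 of the class I total in siControl and 83.2% ± 0.575 in siSON (SD, n = 3 each). RAB11FIP2 made up 23.1% ± 1.12 and 14.4% ± 0.597, and RAB11FIP1 5.95% ± 0.705 and 2.38% ± 0.0496. Such shares are taken within a library and do not depend on how libraries are scaled to one another. They do depend on the exons of each gene that these cells use, which gene counts do not show.

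Of the class II effectors, RAB11FIP3 links Rab11 vesicles to dynein and carries them to the pericentrosomal region and the cleavage furrow. It had 49.3, 49.9 and 51.6 CPM in siControl and 67.6, 68.4 and 70.5 CPM in siSON. The 3 libraries of each group were close together and the groups were apart, at means of 50.3 ± 1.17 and 68.8 ± 1.53 CPM (SD, n = 3 each). The log2 fold change was 0.45 (SE 0.06) with an edgeR adjusted p of 2.01e-05. Its paralog RAB11FIP4 was barely counted, with 2, 4 and 3 counts in siControl and 0, 0 and 3 counts in siSON. A level of 3 counts, taken here as an approximate upper bound where 0 is counted, corresponds to 0.0401 to 0.0590 CPM in these libraries. It covers counting error only. RAB11FIP4 was therefore not tested, and a change in it was not detectable at this depth.

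EHD1, the EHD protein that cuts recycling tubules and also acts in early ciliogenesis, rose. Its levels were 137, 144 and 147 CPM in siControl and 205, 238 and 252 CPM in siSON. The siSON libraries were higher throughout but spread more widely, with replicate 1 the lowest. The means were 143 ± 5.39 and 232 ± 24.2 CPM (SD, n = 3 each), which gave a log2 fold change of 0.70 (SE 0.07, edgeR adjusted p 5.47e-06). Without siSON replicate 1 the log2 fold change was 0.80, and it was 0.39 under cyclic loess normalization.

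EHD3, the closest relative of EHD1, acts in transport from early to recycling endosomes. It had 33.9, 29.4 and 32.1 CPM in siControl and 54.5, 51.3 and 50.4 CPM in siSON. The groups were apart, at means of 31.8 ± 2.27 and 52.1 ± 2.19 CPM (SD, n = 3 each). The log2 fold change of 0.71 (SE 0.07, edgeR adjusted p 4.06e-06) was the largest rise among the 9 genes, hardly above that of EHD1 (0.70, SE 0.07). Over the alternatives run EHD3 ranged from 0.51 to 0.74 and EHD1 from 0.39 to 0.80, so their order is not settled. The ratio of EHD3 to EHD1 counts per kilobase was 0.343 ± 0.0344 in siControl and 0.348 ± 0.0529 in siSON (SD, n = 3 each), and the groups overlapped.

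EHD4, which acts at early endosomes, was the least changed. It had 59.8, 62.7 and 66.2 CPM in siControl and 66.4, 69.4 and 75.3 CPM in siSON, so that the lowest siSON library lay just above the highest siControl library. Its log2 fold change was 0.16 (95% interval 0.02 to 0.31, edgeR adjusted p 0.0470). The call was lost without siControl replicate 1 (adjusted p 0.235), siControl replicate 2 (0.171), siSON replicate 2 (0.0672) or siSON replicate 3 (0.152), and with DESeq2 (0.0639), relative log expression factors (0.0562), or when genes averaging under 50 counts were dropped (0.157). With library size alone the log2 fold change was -0.04 and under cyclic loess -0.02. The ratio of EHD1 to EHD4 counts per kilobase, which needs no scaling, was 2.52 ± 0.0416 in siControl and 3.65 ± 0.199 in siSON (SD, n = 3 each), with no overlap. EHD1 thus rose relative to EHD4 by 0.54 on the log2 scale (0.51 to 0.58 when each library was left out in turn).

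Because EHD genes are near relatives, the coding sequences were compared to see whether reads could be told apart. EHD1 and EHD3 were identical at 82.4% of aligned coding bases, EHD1 and EHD4 at 76.8%, and EHD3 and EHD4 at 77.5%. The 60-base coding stretch most alike in the 3 genes, from the GENCODE 29 transcripts, held 54 bases identical in all, and capitals mark the positions at which the genes differ. It covers coding bases 117 to 176 of EHD1 and EHD3 and 126 to 185 of EHD4.
EHD1: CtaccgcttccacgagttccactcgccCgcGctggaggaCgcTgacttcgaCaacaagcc
EHD3: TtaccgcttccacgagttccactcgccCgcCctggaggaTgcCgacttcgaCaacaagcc
EHD4: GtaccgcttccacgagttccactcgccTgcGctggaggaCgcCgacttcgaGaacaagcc
Of the 50-base windows of the main EHD1 transcript, 5 of 4502 (0.111%) occurred in a transcript of another gene, which was EHD3. No 100-base window of any of the 10 main transcripts was shared with another gene, and at 50 bases the highest share was 1.74%, for MICALL1. The read length is not given in the sources used here.

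MICALL1 showed the largest change. It had 106, 106 and 115 CPM in siControl and 37.4, 34.4 and 39.3 CPM in siSON. The groups lay far apart relative to their spread, with means of 109 ± 5.46 and 37.0 ± 2.45 CPM (SD, n = 3 each) and a log2 fold change of -1.55 (SE 0.07, edgeR adjusted p 8.25e-09). Of all genes tested, 12.6% had a lower log2 fold change. Over the alternatives run the MICALL1 value ranged from -1.75 to -1.49. The gene (ENSG00000100139) lies on GRCh38 chromosome 22, 37905657 to 37942822, on the plus strand, and no other gene is annotated in its span.

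PACSIN2 rose from 102, 99.97 and 102 CPM in siControl to 133, 141 and 131 CPM in siSON. The groups were apart, with means of 101 ± 1.08 and 135 ± 5.28 CPM (SD, n = 3 each) and a log2 fold change of 0.42 (SE 0.05, edgeR adjusted p 2.33e-05). The call held under each alternative run, with log2 fold changes of 0.16, under cyclic loess, to 0.45. PACSIN2 shares 155 exon bases on the same strand with ARFGAP3, which had 4014 to 6911 counts.

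Set against each other within a library, the messenger RNAs of MICALL1 and of its partners diverged. Per kilobase of merged exons, MICALL1 stood at 0.921, 0.873 and 0.930 of the EHD1 level in siControl and at 0.217, 0.172 and 0.185 in siSON. That ratio was 4.76-fold lower in siSON, and the difference on the log2 scale stayed between -2.34 and -2.18 when each library was left out in turn. Against PACSIN2 the MICALL1 ratio was 0.820 ± 0.0390 in siControl and 0.210 ± 0.0215 in siSON (SD, n = 3 each). The ratio of RAB11FIP2 to RAB11FIP5 went from 0.326 ± 0.0196 to 0.173 ± 0.0084, and that of RAB11FIP1 to RAB11FIP5 from 0.0838 ± 0.0102 to 0.0285 ± 0.000547. The groups did not overlap in any of these 4 ratios, which follows from the levels given above. In each ratio the first gene fell and the second rose without overlap, so the ratios add no separate evidence. The pairs were chosen after the values were seen, out of 7 ratios computed.

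**Figure D2:**
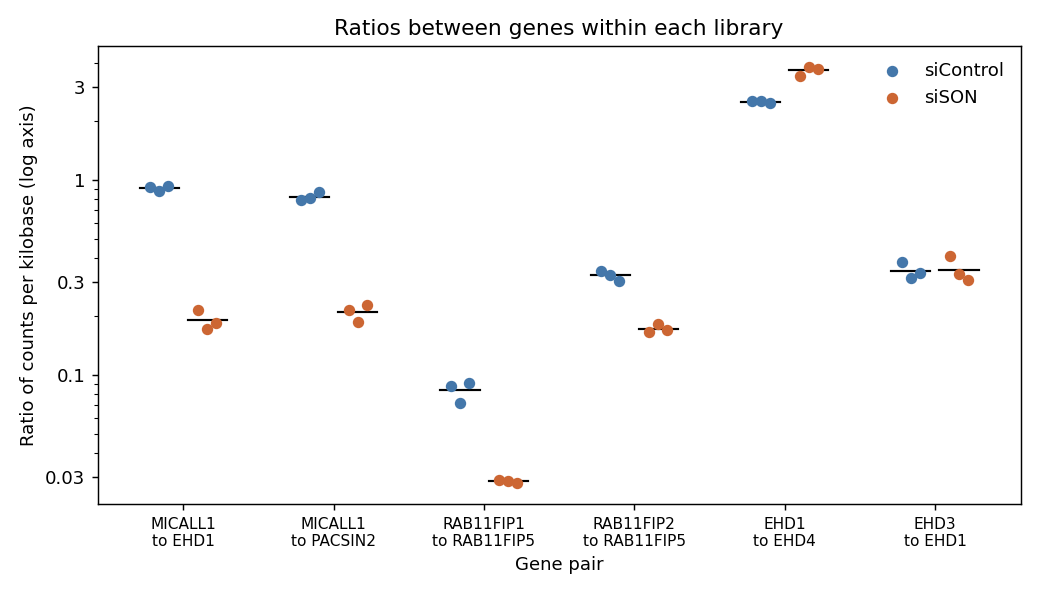
Ratios of counts per kilobase of merged exons between pairs of genes (log axis), with 1 point per library, siControl in blue and siSON in orange, and a black line at each group's mean. MICALL1 to EHD1 drops from a mean of 0.908 to 0.191, whereas EHD3 to EHD1 overlaps between the groups.

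Ordered by level per kilobase of merged exons in siControl, PACSIN2 came first at 22.2 ± 0.237 CPM per kilobase, followed by EHD1 (20.1 ± 0.759), MICALL1 (18.2 ± 0.914) and RAB11FIP5 (17.2 ± 0.476). EHD4 (7.98 ± 0.408), RAB11FIP3 (7.96 ± 0.186), EHD3 (6.87 ± 0.49), RAB11FIP2 (5.58 ± 0.183) and RAB11FIP1 (1.44 ± 0.188) followed, and RAB11FIP4 was last (SD, n = 3 each). The libraries of neighbours in this order overlapped only for EHD1 with MICALL1 and for EHD4 with RAB11FIP3. In siSON, EHD1 (32.6 ± 3.40) and PACSIN2 (29.6 ± 1.2) overlapped at the top and MICALL1 was seventh, at 6.21 ± 0.411 CPM per kilobase. EHD3 (11.2 ± 0.472) there overlapped RAB11FIP3 (10.9 ± 0.242), and EHD4 (8.93 ± 0.57) lay below both.

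The sizes of the rises depended on the scaling of the libraries more than their directions did. Scaling by library size alone shifted log2 fold changes from their TMM values by a median of -0.20 over genes tested, and cyclic loess by 0.14. With library size alone EHD3 had a log2 fold change of 0.51, EHD1 0.50, RAB11FIP5 0.27, RAB11FIP3 0.26 and PACSIN2 0.22. Under cyclic loess the values were 0.61, 0.39, 0.18, 0.29 and 0.16 in the same order. Each lay below its TMM value, opposite to the median shift of 0.14 over genes tested. These 5 genes, unlike EHD4, stayed called higher under each scaling, and MICALL1, RAB11FIP1 and RAB11FIP2 stayed called lower.

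**Figure D3:**
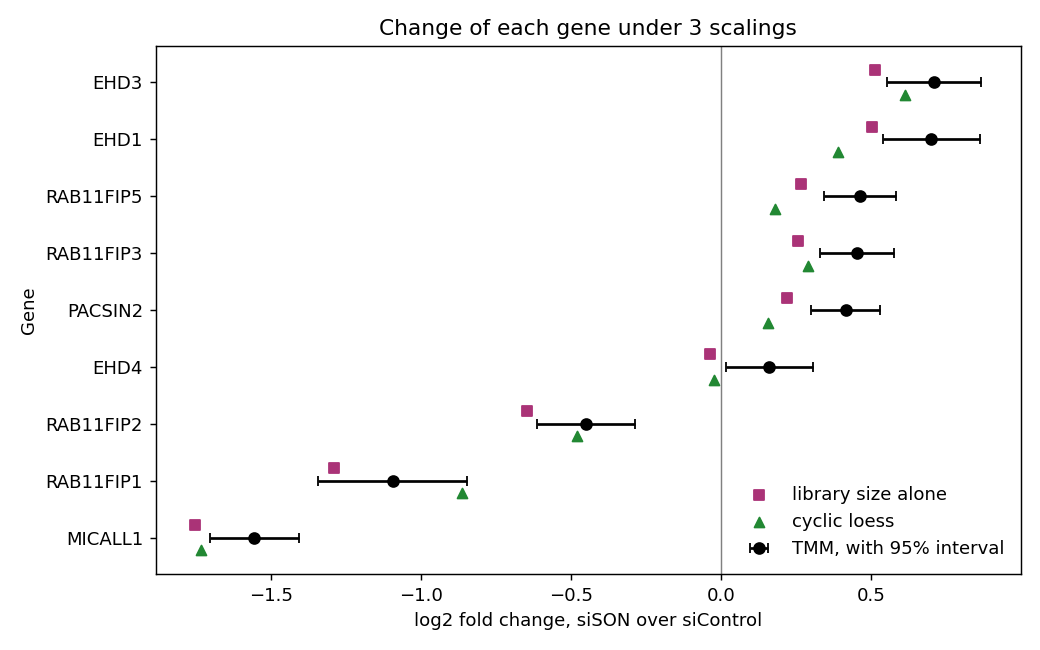
Log2 fold change, siSON over siControl, of the 9 genes tested. Black points give the TMM value with its 95% interval, purple squares the value with library size alone and green triangles the value under cyclic loess normalization. EHD4 alone has values on both sides of 0, from -0.04 to 0.16.

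The genes that fell and those that rose were compared in features of their annotation. The main transcripts of MICALL1 and RAB11FIP1 had the shortest median introns of the 9 genes tested, 1367 and 1786 bases, while that of RAB11FIP2 was 5542 bases. In the 6 genes that rose the median intron was 2644 bases, in PACSIN2, to 10599 bases, in EHD4, beside a median of 1864 bases for protein-coding genes tested. MICALL1 has 16 exons in that transcript, and RAB11FIP1 and RAB11FIP2 have 6 and 5. GC content did not separate the groups, being 36.5% for RAB11FIP2, 49.5% for RAB11FIP1 and 61.8% for MICALL1, and 52.0% (EHD4) to 64.5% (RAB11FIP3) for those that rose. These are descriptions of 9 genes.

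Promoter sequence from RefSeq (GRCh38.p14) was matched for 8 of the 10 genes, RAB11FIP1 and RAB11FIP4 not being among them. The 250 bases before the RefSeq start are shown for the genes with the largest fall, MICALL1 (chr22:37906047-37906296, plus strand), and the largest rise, EHD3 (chr2:31233902-31234151, plus strand). In the GENCODE annotation MICALL1 starts at 37905657, so its window lies downstream of that start, inside the annotated gene. The EHD3 window lies before the GENCODE start of EHD3, at 31234337. Capitals mark the motifs searched on both strands, namely CCAAT for the CCAAT box, then GGGCGG for a GC box that binds Sp1-type factors, then CACGTG for an E box bound by helix-loop-helix factors, and finally TATAAA for the TATA box. None of them overlapped in the windows shown.
MICALL1: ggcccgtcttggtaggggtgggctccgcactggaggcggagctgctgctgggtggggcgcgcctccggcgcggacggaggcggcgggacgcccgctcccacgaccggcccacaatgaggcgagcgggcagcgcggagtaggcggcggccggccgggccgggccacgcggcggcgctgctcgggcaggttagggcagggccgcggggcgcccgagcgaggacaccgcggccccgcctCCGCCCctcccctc
EHD3: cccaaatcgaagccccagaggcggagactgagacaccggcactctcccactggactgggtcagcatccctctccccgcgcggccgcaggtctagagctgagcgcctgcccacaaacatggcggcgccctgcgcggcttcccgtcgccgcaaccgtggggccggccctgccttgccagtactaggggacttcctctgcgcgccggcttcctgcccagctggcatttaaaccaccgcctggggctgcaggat
The MICALL1 window had a GC content of 81.2% and held 1 GC box, a motif present in 42.6% of 35116 promoter windows of that length. The EHD3 window had a GC content of 68.4% and held none of the 4 motifs, of which the CCAAT box was found in 32.0% of windows, the E box in 6.34% and the TATA box in 10.7%. A match of letters is a description of the window, not evidence of binding.

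The wider pathway was read from 7 lists of recycling genes. Of 96 genes listed, 95 were matched by name and 91 tested. Of these, 73 (80.2%) were called changed, 49 higher and 24 lower. Of all genes tested, 71.7% were called, 35.2% higher and 36.5% lower. Scaling by library size alone gave 42 higher and 33 lower, and cyclic loess gave 45 and 30. The median log2 fold change was 0.23, and 0.03 with library size alone.

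**Figure D4:**
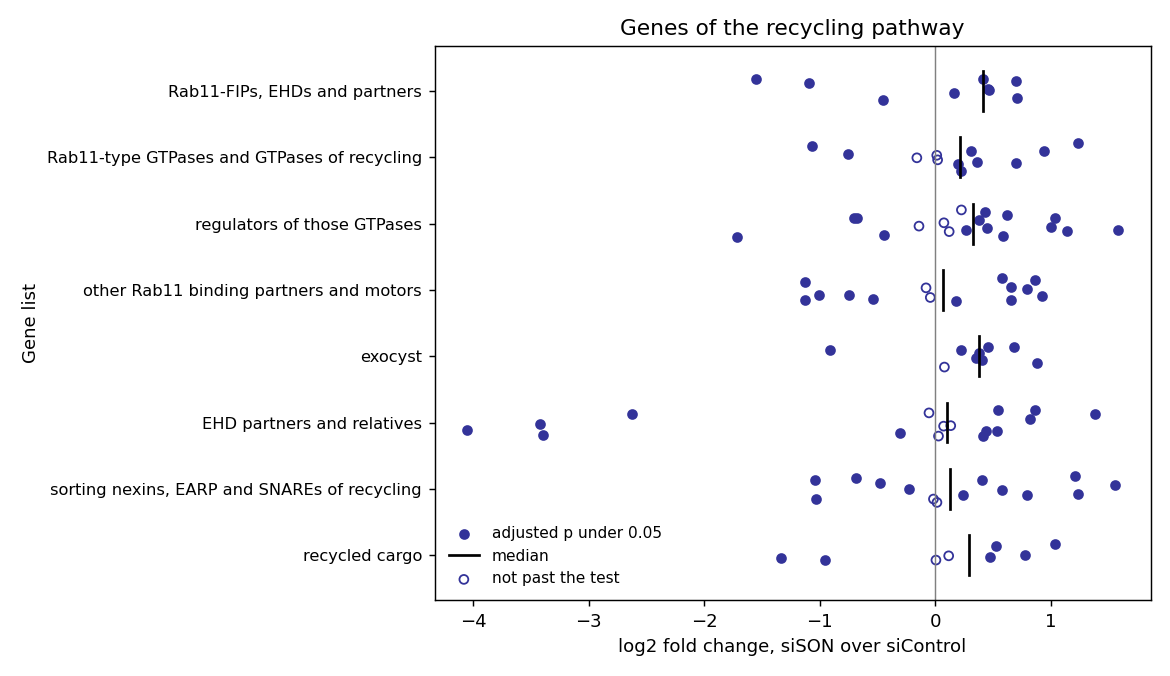
Log2 fold change, siSON over siControl, of the 9 genes tested and of the 91 tested genes of 7 recycling lists, with 1 point per gene, filled where the adjusted p was under 0.05, and a black line at each list's median. The 4 lowest points, between -4.05 and -2.62, are MICALL2, PACSIN3, EHBP1L1 and MICAL1 in the list of EHD partners.

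Of the Rab11 GTPases themselves, RAB11A, the most widely studied, fell, with 131 ± 7.39 CPM in siControl and 77.5 ± 2.13 CPM in siSON (SD, n = 3 each) and a log2 fold change of -0.75 (edgeR adjusted p 4.99e-07). RAB11B, its close paralog, went from 93.1 ± 4.68 to 109 ± 1.35 CPM (0.22, adjusted p 0.00335), a call lost with library size alone (0.03) and under cyclic loess (-0.02). RAB8A and RAB8B, which act after Rab11 in ciliary membrane delivery, rose by 0.94 and 1.24. Of 12 GTPases tested, 7 were called higher and 2 lower (background 35.2% and 36.5%). Scaling by library size alone, however, gave 4 and 5, and cyclic loess 3 and 2.

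Among 18 regulators of these GTPases, 10 were called higher and 4 lower (background 35.2% and 36.5%). SH3BP5L, which belongs to a family of exchange factors for Rab11, rose by 1.00 and TBC1D10B, a GTPase-activating protein for Rab35 and other Rabs, fell by 1.72 on the log2 scale (edgeR adjusted p 1.78e-08 and 1.14e-08).

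Partners and motors of Rab11 were called higher in 7 and lower in 5 of 14 genes tested (background 35.2% and 36.5%). With library size alone the counts were 6 and 6, and under cyclic loess 6 and 5. KIF13A, a kinesin that tubulates recycling endosomes, rose by 0.92 and KIF3A, a kinesin-2 motor subunit, fell by 1.13 on the log2 scale (edgeR adjusted p 5.54e-08 and 1.28e-07). KIF3B, another kinesin-2 motor subunit of this list, rose by 0.87 (edgeR adjusted p 3.46e-07). Myosin Vb, the partner of RAB11FIP2, is encoded by MYO5B, which had 5.74 ± 0.873 CPM in siControl and 5.43 ± 0.292 CPM in siSON and did not pass the test (95% interval of the log2 fold change -0.37 to 0.21, edgeR adjusted p 0.612). MYO5A rose by 0.79 (0.52 under cyclic loess) and MYO5C fell by 1.13. Of the dynein light intermediate chains that RAB11FIP3 can bind, DYNC1LI2 fell by 0.53 on the log2 scale, and by 0.81 under cyclic loess. DYNC1LI1 had a log2 fold change of -0.04 (95% interval -0.19 to 0.10, edgeR adjusted p 0.584), and was called lower with library size alone (-0.24) and under cyclic loess (-0.15). WDR44, another Rab11 binder, rose by 0.58, and by 0.39 with library size alone.

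The exocyst tethers recycling vesicles at the plasma membrane. Of its 9 genes tested, 7 were called higher and 1 lower, beside 35.2% and 36.5% of all genes tested. Cyclic loess also gave 7 and 1, library size alone 6 and 1, and the median log2 fold change of 0.38 became 0.26 and 0.18 in that order. EXOC7 was the one that fell, with 169 ± 4.97 CPM in siControl and 89.9 ± 4.58 CPM in siSON (SD, n = 3 each) and a log2 fold change of -0.91 (edgeR adjusted p 8.47e-08), and EXOC6B rose by 0.88 (adjusted p 4.74e-07).

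The deepest falls lay among relatives of MICALL1 and PACSIN2. MICALL2, the paralog of MICALL1 that acts with Rab13 at junctions, had 31.5, 32.9 and 29.04 CPM in siControl and 2.17, 1.78 and 1.65 CPM in siSON, a log2 fold change of -4.05 (SE 0.12, edgeR adjusted p 8.61e-10). PACSIN3 went from 30.9 ± 1.10 CPM in siControl to 2.89 ± 0.504 CPM in siSON (SD, n = 3 each). Its log2 fold change was -3.42, with an edgeR adjusted p of 2.06e-09. Several MICAL and EHBP1 proteins, though not all, share with MICALL1 a C-terminal domain that binds Rab GTPases. Of the MICAL and EHBP1 genes listed, EHBP1L1 fell by 3.40, MICAL1 by 2.62 and MICAL3 by 0.31 on the log2 scale. MICAL2 rose by 0.82 and EHBP1 by 0.44, and each of these genes had an edgeR adjusted p of at most 0.00408. With library size alone MICAL3 was at -0.50 and EHBP1 at 0.24, and under cyclic loess MICAL2 was at 0.53. EHD2, the EHD protein of caveolae, stood at 381 ± 17.6 CPM in siControl and 551 ± 31.7 CPM in siSON, a log2 fold change of 0.53 (adjusted p 6.48e-06) that was 0.34 with library size alone and 0.15 under cyclic loess (adjusted p 0.0333). Of 16 genes of this list tested, 7 were called higher and 5 lower (background 35.2% and 36.5%). Library size alone gave 7 and 6, and cyclic loess 7 and 7.

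Cargo genes were called higher in 4 and lower in 2 of 8 genes tested (background 35.2% and 36.5%). Under cyclic loess they were called in 4 and 4. TFRC, the transferrin receptor whose return defines the recycling route, rose, with 120.3 ± 14.8 CPM in siControl and 246 ± 12.5 CPM in siSON (SD, n = 3 each) and a log2 fold change of 1.03 (edgeR adjusted p 5.76e-07). SLC2A1, the glucose transporter GLUT1, fell by 0.95 on the log2 scale (edgeR adjusted p 1.33e-08). Sorting nexins, tethers and SNAREs numbered 14 tested, with 7 called higher and 5 lower (background 35.2% and 36.5%). With library size alone 6 were called higher and 7 lower, and under cyclic loess 7 and 7. SNX4, which guides the transferrin receptor toward recycling, rose by 1.56, and SNX17, an integrin and lipoprotein receptor adaptor, fell by 1.04 on the log2 scale (adjusted p 8.70e-09 and 5.69e-08).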

How the data were processed

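Gene-level RNA-seq counts of 6 RPE-1 libraries were used. The authors deposited whole-number counts per gene, unnormalized, with 1 column per library, per the file headers. The submitters' processing notes name cutadapt 1.16, STAR 2.5.2a, featureCounts 1.6.2, DESeq2 1.28.1 and hg38, without roles, and the annotation release, strand setting and treatment of multi-mapping reads are not given in the sources used here. All 58735 identifiers matched GENCODE 29 (GRCh38), which gave positions, exons and merged exon lengths. Its main transcript was the APPRIS principal one, the longest where several were tagged.

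In R 4.3.3, edgeR 4.0.16 kept genes by filterByExpr (minimum count 10), scaled by TMM and compared siSON with siControl by a robust quasi-likelihood test on all 6 libraries, with Benjamini-Hochberg adjustment over 16591 genes and a threshold of 0.05. SEs are the absolute log2 fold change over the square root of F. Library totals ran from 54572365 to 69764836 counts. On simulated counts of 16591 genes, of which 200 were changed, this comparison recovered 88 of 100 changed 2-fold and 79 of 100 changed 1.5-fold. It made 10 false calls. In the data 71.7% of genes were called, a share that the simulation did not cover, so these rates need not hold for them.

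The members and lists were chosen with earlier results of these data known. The text names the 10 members, SON, RAB11A, RAB11B, the 2 genes of smallest adjusted p among those called in each recycling list, and the 3 protein-coding genes (average log2 CPM not under 1) whose profile was nearest to the member with the largest rise and to the one with the largest fall. EHD2, TFRC, WDR44, KIF3B, the MICAL, EHBP1, MYO5, DYNC1LI and VPS50 to VPS54 genes were named after their values were seen. A gene that this rule names among the cargo genes is not reported here. Alternatives were DESeq2 1.42.0, limma 3.58.1 (voom, cyclic loess), other scalings, filters, a replicate block and leaving out each library.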

Additional observations from a re-analysis of the deposited data

How the results depend on the processing

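Of the 9 genes tested, 8 to 9 were called changed over 14 alternatives, 5 to 6 higher and 3 lower, and EHD4 was the gene whose call was lost. EHD4 had log2 fold changes of -0.036 with library size alone and -0.023 under cyclic loess, and 0.0996 to 0.214 when each library was left out. RAB11B was at -0.015 under cyclic loess. MYO5B, which did not pass the test, was at 0.238 under cyclic loess and between -0.199 and 0.012 when each library was left out, the latter without siControl replicate 1. The cause of these reversals was not tested. Genes called at least 2-fold lower went from 2 to 1 under cyclic loess, where RAB11FIP1 was at -0.86. SON ranged from -2.42 to -2.10. Genes called over the whole table ranged from 10226 to 12604, and recycling pathway genes from 68 to 77 of those tested. Cyclic loess and the other settings were fixed with earlier results of these data known, and the ratios within libraries were chosen after the data were seen.

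Same-numbered libraries of the groups correlated in their deviations from the group means by 0.194, 0.0461 and 0.118 (replicates 1 to 3), each more than differently numbered ones did (at most 0.0286). Same-numbered libraries carry consecutive sample indices in the column names, the labels do not say whether a number marks a shared batch, and 1 of the 3 correlations is under 0.1, so the numbers were not taken as pairs. With the replicate number as a replicate block, 9 of the 9 genes were called, EHD4 had an adjusted p of 0.0101, MICALL1 a log2 fold change of -1.55, and 12313 genes were called over the table, 77 of them in the pathway lists. It changed no call among the 9 genes. Low counts limited RAB11FIP4, which was not tested.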

Other observations

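The EARP complex, which tethers vesicles at recycling endosomes, and the related GARP complex at the trans-Golgi share 3 subunits. Of these, VPS51 and VPS52 fell, by 1.03 and 0.68 on the log2 scale (edgeR adjusted p 1.05e-07 and 5.35e-06). VPS51 had 53.4 ± 2.05 CPM in siControl and 26.2 ± 1.06 CPM in siSON, and VPS52 had 44.6 ± 2.71 and 27.7 ± 1.27 CPM (SD, n = 3 each). VPS53 rose by 0.58 (adjusted p 2.60e-06; 0.38 with library size alone and under cyclic loess), with 59.4 ± 0.813 CPM in siControl and 88.8 ± 3.48 CPM in siSON. VPS50, the subunit particular to EARP, rose by 0.41 and VPS54, its counterpart in GARP, by 1.24 (adjusted p 0.00033 and 9.02e-08). VPS50 was at 0.21 with library size alone.

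Profiles over the 6 libraries were compared by the root mean square difference of log2 CPM, centred on the siControl mean, among 11020 protein-coding genes. METTL22, CNN3 and AIMP1 were nearest to EHD3, at 0.0197, 0.0262 and 0.0291. DRAM1, DPP3 and C4orf48 were nearest to MICALL1, at 0.0346, 0.0494 and 0.0515. With 6 libraries in 2 groups this likeness reflects mainly the size of the group difference, which was -1.56 for DRAM1 and 0.71 for METTL22 on the log2 scale.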
